A study of Mus musculus with 9 samples.

Results

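Endothelial cells line every blood and lymphatic vessel of the heart and, as endocardium, its chambers. The genes described here are 39 genes known for endothelial, vascular or lymphatic identity, taken by their symbols from a deposited table of 48820 genes and followed in whole mouse hearts through 3 stages around birth. By role they comprise 3 VEGF receptors, 3 genes of the angiopoietin-Tie system, 2 of the apelin system, 12 junction and surface proteins, 6 transcription factors, 3 arterial or venous identity genes, 2 lymphatic identity genes and 8 capillary, secreted or signalling proteins. All 39 were found in the table, and 38 of them averaged 1 FPKM or more (fragments per kilobase of transcript, scaled to the fragments mapped in each library) and were tested. *Esm1*, a secreted proteoglycan of sprouting tip cells, fell short of this.

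In a growing vessel, VEGF-A acts through *Kdr* (VEGFR2) to drive sprouting and division, *Flt1* (VEGFR1) binds the same ligand and restrains it, and *Flt4* (VEGFR3) receives VEGF-C, mainly in lymphatic vessels. Angiopoietins act on the receptor *Tek* (Tie2) and its partner *Tie1* and set how stable a vessel is. The heart muscle is supplied by a dense capillary bed that hands fatty acids and oxygen to the cardiomyocytes, whose fuel changes after birth from mainly carbohydrate to mainly fat.

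The hearts came from untreated wild-type C57BL/6J mice, an inbred strain. There were 3 hearts on embryonic day 18.5 (E18.5d), 3 on postnatal day 1 (P1d) and 3 on postnatal day 7 (P7d), labelled as biological replicates, and all 9 were labelled male. Total RNA of the whole organ was sequenced. Depth, read from the steps between low FPKM values, came to between 25.75 and 44.75 times 1e6 fragments a heart, with the P1d hearts at 27.5 to 29.75 times 1e6.

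Markers of cardiomyocytes were abundant in every heart, with a summed level of 31054 to 40129 FPKM for 7 genes led by *Myl2*, so that the labelled tissue was present throughout. The sex label did not match in 4 hearts. *Xist*, the RNA that silences one X chromosome in females, was at 82.6 and 97.0 FPKM in E18.5d replicates 1 and 3 and at 58.0 and 70.0 FPKM in P7d replicates 2 and 3, and did not exceed 0.11 FPKM elsewhere. Of the Y chromosome, *Eif2s3y*, *Uty*, *Kdm5d* and *Ddx3y* were all at 0 in those 4 hearts and summed to 67.0 to 80.7 FPKM in the others. Among 5 lung epithelial genes, *Scgb3a2*, an airway secretory protein, was at 53.2 and 127 FPKM in E18.5d replicates 1 and 2 and at 179 FPKM in P1d replicate 1. It was at 1.0 FPKM or less in the other 6 hearts. *Scgb1a1*, of the same cells, reached 42.1 FPKM in P1d replicate 1, whereas the alveolar gene *Sftpc* stayed at or below 0.44 FPKM in all 9. Leaving out the 4 hearts with *Xist* left 1 heart at E18.5d and 1 at P7d. Leaving out the 3 hearts with *Scgb3a2* left 1 heart at E18.5d. Against E18.5d, calls in that fit rested on this 1 heart, with the spread taken from the other stages. Each called change of the 39 genes below kept its sign in both fits. It had to, because the hearts of the stages compared did not overlap in any called change. The part that sex, airway tissue or the other cells named below took in the results was not tested.

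Summed over the 39 genes, the level was 1029.9 ± 35.7 FPKM in fetal hearts (SD, n = 3), 1127 ± 68.9 in P1d hearts and 1239.8 ± 7.26 in P7d hearts. Heart by heart, the sums were 1061, 1038 and 991 FPKM (E18.5d), 1100.3, 1205 and 1076 FPKM (P1d) and 1243, 1231 and 1245 FPKM (P7d), so that the hearts of the 3 stages did not overlap on this scale. On an equal sum the fetal hearts were at 1085, 1088 and 1075 FPKM and the P1d hearts at 1127, 982 and 1043 FPKM, which overlapped with a lower mean at P1d, while the P7d hearts, at 1267, 1184 and 1348 FPKM, were above both. These are whole hearts, in which fewer cells of a type and less RNA per cell cannot be told apart. Between genes, FPKM levels spanned a wide range at every stage. *Pecam1* (CD31, an adhesion molecule at endothelial contacts) led at E18.5d with 99.0 ± 7.48 FPKM and *Cdh5* (VE-cadherin, the adhesion molecule of endothelial junctions) followed with 86.7 ± 5.19 FPKM. Next came *Egfl7*, a secreted matrix protein of endothelial cells, at 72.1 ± 1.17 FPKM and *Eng* (endoglin, a TGF-beta co-receptor) at 71.8 ± 1.16 FPKM, which did not differ beyond their spread. At P7d *Cdh5* and *Pecam1* stood side by side at 129 ± 4.01 and 128 ± 3.08 FPKM, within their spread of each other. At the other end, *Car4*, *Tal1*, *Pdpn* and *Angpt2* were under 5 FPKM on average at E18.5d. *Esm1* was at 0.110, 0.280 and 0.190 FPKM (E18.5d), 0.180, 0.140 and 0.210 FPKM (P1d) and 0.350, 0.340 and 0.650 FPKM (P7d), each above the 0.0376 to 0.065 FPKM that 3 fragments were worth. It was detected in every heart and was too low to be tested.

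From E18.5d to P1d, 9 of the 38 genes tested rose and 9 fell (limma, adjusted p under 0.05), while 18.4% of all 13618 genes tested rose and 27.6% fell. From E18.5d to P7d, 17 rose and 9 fell, against 12.5% and 36.9% of all genes. Between P1d and P7d, 16 rose and 7 fell, beside 15.5% and 28.6%. The median log2 change of the 38 genes was -0.01, 0.17 and 0.13 in the 3 comparisons, and that of all genes tested was -0.06, -0.17 and -0.09. The distance between these medians was widest for P7d against E18.5d. There, 20 of the 38 had every P7d heart above every E18.5d heart and 10 had every one below (16.9% and 45.6% of all genes). For P1d against E18.5d these counts were 12 and 12 (22.1% and 32.3% of all genes), and for P7d against P1d they were 17 and 10 (19.3% and 34.3%).

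The FPKM columns were not scaled alike, and the split depended on this. Rescaled by median of ratios, which brought the medians of all genes to 0.00, -0.02 and 0.00, 14 rose and 9 fell at P1d against E18.5d (23.2% and 22.9% of all genes). On that scale 22 rose and 5 fell at P7d against E18.5d (21.3% and 20.9%), and 18 rose and 4 fell at P7d against P1d (21.9% and 19.8%). Rescaled to an equal sum, which took the median of all genes at P1d against E18.5d to -0.21, 6 rose and 15 fell there (8.63% and 34.5%). On the 4 other scales tried, 0 of the 67 called changes turned their sign.

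**Figure D1:**
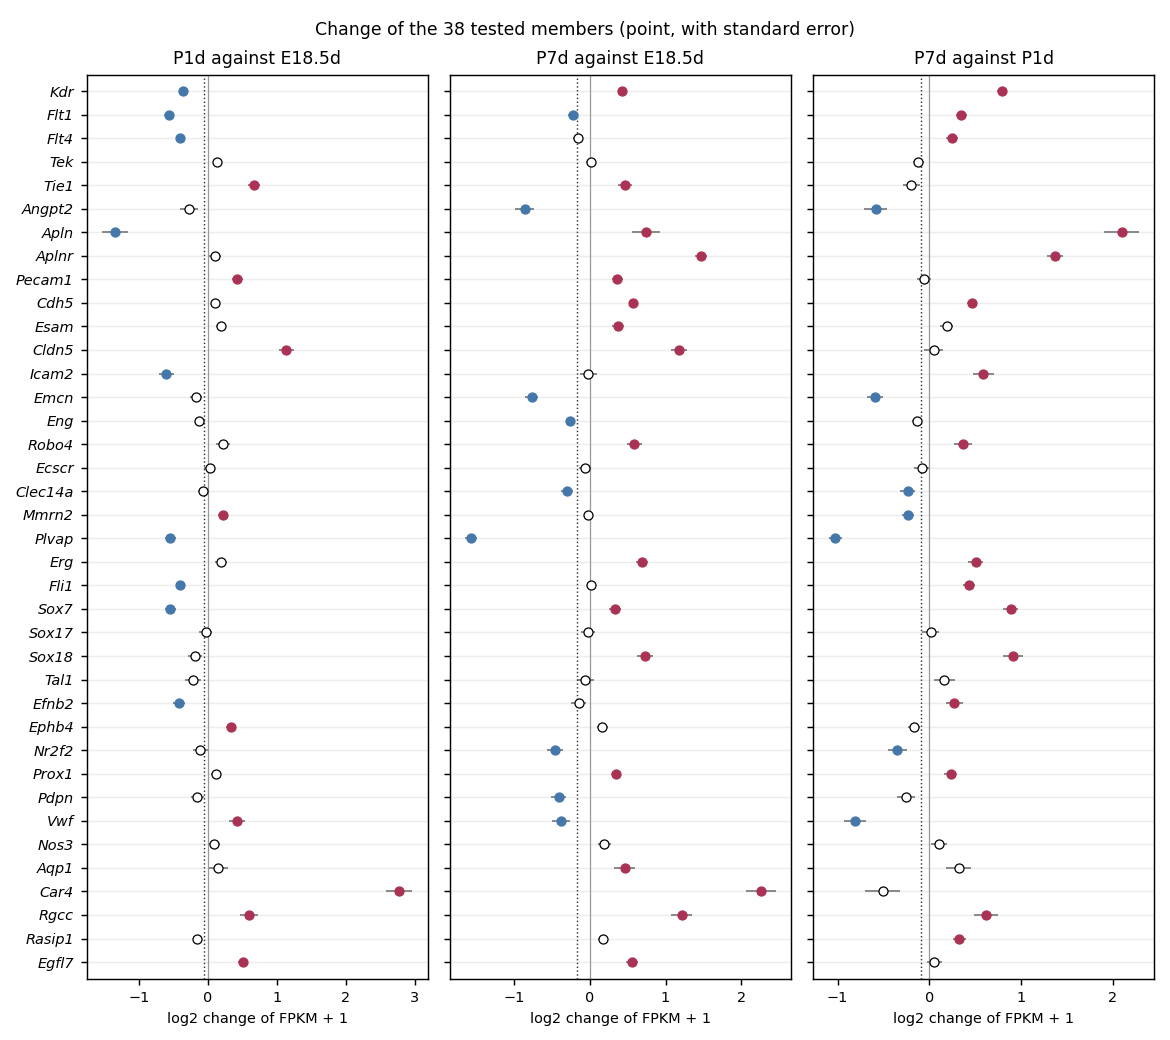
Log2 change of FPKM + 1 for the 38 genes tested, in 3 panels for the 3 comparisons, with the standard error of the limma fit as a bar. Filled red points rose and filled blue points fell at an adjusted p under 0.05, open points did not pass, and the dotted line is the median of all genes tested (-0.06, -0.17 and -0.09). *Apln*, *Aplnr* and *Plvap* lie farthest from 0 in the panel of P7d against P1d, and *Car4* in the other 2.

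Read over the 3 comparisons, the genes took several courses. *Rgcc* rose and *Plvap* fell in each comparison. *Apln*, *Kdr* and *Sox7* fell at P1d and then rose above their fetal level by P7d, and *Efnb2*, *Fli1*, *Flt4* and *Icam2* fell at P1d and rose again from there, with no called difference between P7d and E18.5d. The rise of *Sox7* over E18.5d was not called on the equal-sum scale. *Aplnr*, *Cdh5*, *Erg*, *Prox1*, *Robo4* and *Sox18* had no called change at P1d and were higher at P7d than at both earlier stages. *Car4*, *Cldn5*, *Egfl7*, *Pecam1* and *Tie1* rose at P1d and had no called change from there to P7d. *Vwf* rose at P1d and was lowest at P7d, with calls against E18.5d that kept their side of the threshold under 17 of 22 alternatives at P1d and 12 of 22 at P7d. *Angpt2*, *Clec14a*, *Emcn* and *Nr2f2* were lower at P7d than at both earlier stages, with no called change at P1d. *Ecscr*, *Nos3*, *Sox17*, *Tal1* and *Tek* passed the threshold in no comparison. The calls of *Clec14a*, *Efnb2*, *Nr2f2* and *Prox1* at P7d against P1d each ended when any of several single hearts was left out, and that of *Robo4* ended without P7d replicate 3 and with a covariate for *Xist*.

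RefSeq promoters of build GRCm38.p6, from 250 bases before to 50 bases after the start of the gene, could be matched for 24 of the 39 genes. The sequence CAGGAAG, a core of the sites that ETS factors such as ERG and FLI1 bind, was searched on both strands. It was found in 6 of the 24 (25.0%), namely *Apln*, *Emcn*, *Robo4*, *Erg*, *Rasip1* and *Egfl7*, and in 14.8% of 27025 genes. Among the genes with a promoter it was present in 4 of 11 that rose and 1 of 6 that fell from E18.5d to P7d. The other ETS form CCGGAAG was found in 1 of the 24, *Car4* (4.2% against 9.9% of all genes). AGATAA, read by GATA factors, occurred in *Tek*, *Erg* and *Tal1* (12.5% against 12.7%), and GTAAACA, read by forkhead factors, in *Pdpn* (4.2% against 4.1%). The 4 sequences searched were chosen with the values known. As examples of an early rise, of a fall and return, and of a late fall, the windows shown are those of *Car4* (chr11:84957504-84957803, plus strand), *Apln* (chrX:48034804-48035103, minus strand) and *Emcn* (chr3:137340828-137341127, plus strand), written 5′ to 3′ along the gene. Capitals mark the ETS sequence, which in all 3 is read from the opposite strand (CTTCCGG in *Car4*, CTTCCTG in *Apln* and *Emcn*).
Car4: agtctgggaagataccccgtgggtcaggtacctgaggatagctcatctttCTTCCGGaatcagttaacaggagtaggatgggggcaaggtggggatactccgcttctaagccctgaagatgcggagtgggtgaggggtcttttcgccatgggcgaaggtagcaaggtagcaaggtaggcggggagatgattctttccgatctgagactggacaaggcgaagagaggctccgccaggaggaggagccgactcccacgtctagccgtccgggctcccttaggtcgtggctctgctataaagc
Apln: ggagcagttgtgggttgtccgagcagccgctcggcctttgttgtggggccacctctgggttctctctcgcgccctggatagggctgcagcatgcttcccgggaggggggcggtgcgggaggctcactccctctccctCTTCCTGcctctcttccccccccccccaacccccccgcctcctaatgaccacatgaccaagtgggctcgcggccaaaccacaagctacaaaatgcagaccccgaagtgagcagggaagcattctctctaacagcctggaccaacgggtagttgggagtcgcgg
Emcn: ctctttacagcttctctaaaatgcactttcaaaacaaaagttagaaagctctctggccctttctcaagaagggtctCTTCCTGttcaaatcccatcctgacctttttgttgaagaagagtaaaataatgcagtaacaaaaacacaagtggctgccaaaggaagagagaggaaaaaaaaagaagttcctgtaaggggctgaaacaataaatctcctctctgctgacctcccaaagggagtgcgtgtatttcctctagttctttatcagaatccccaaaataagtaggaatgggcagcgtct

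All 3 VEGF receptors fell from E18.5d to P1d, where 27.6% of all genes fell. The calls of *Kdr* and *Flt4* were lost without the 3 hearts with *Scgb3a2*, which left only E18.5d replicate 3 at its stage. Over all alternatives, the log2 change at P1d ran from -0.53 to -0.29 for *Kdr* and from -0.55 to -0.30 for *Flt4*. *Kdr* (chromosome 5: 75932827 to 75978458, GRCm38) was at 64.9, 61.6 and 59.7 FPKM in the E18.5d hearts, 49.2, 46.7 and 48.2 FPKM in the P1d hearts and 82.8, 81.7 and 87.0 FPKM in the P7d hearts. The 3 stages did not overlap, with P1d lowest and P7d highest. The log2 change of FPKM + 1 was -0.36 ± 0.054 (SE, adjusted p = 0.000604) from E18.5d to P1d, 0.79 ± 0.054 (SE, adjusted p = 1.42e-05) from P1d to P7d and 0.43 ± 0.054 (SE, adjusted p = 0.000215) from E18.5d to P7d. *Flt1* read 23.4, 21.8 and 21.1 FPKM in fetal hearts, 15.5, 14.0 and 14.2 FPKM in P1d hearts and 18.2, 19.0 and 19.3 FPKM in P7d hearts. It fell at P1d by 0.57 on the log2 scale (SE 0.064, adjusted p = 0.000123) and regained part of this by P7d (0.35 ± 0.064 (SE, adjusted p = 0.00215)), where all hearts were still below the fetal ones (-0.22 ± 0.064 (SE, adjusted p = 0.0184)). This last difference was no longer called on the 4 other scales, nor without E18.5d replicate 1 or P7d replicate 1. *Flt4* stood at 7.65 ± 0.175 FPKM before birth, 5.55 ± 0.172 FPKM on P1d and 6.75 ± 0.276 FPKM on P7d, a fall of the same course (-0.40 ± 0.064 (SE, adjusted p = 0.000873)) with a smaller return that was lost without P7d replicate 3 and with a covariate for *Xist* (0.24 ± 0.064 (SE, adjusted p = 0.0133)). At P7d, the mean of *Kdr* was 1.35 times and that of *Flt1* 0.852 times its E18.5d mean FPKM.

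In the angiopoietin-Tie system a receptor rose and a ligand fell. *Tie1* was at 31.4, 32.4 and 27.9 FPKM (E18.5d), 46.2, 55.9 and 45.5 FPKM (P1d) and 45.6, 41.8 and 40.7 FPKM (P7d). Both postnatal stages lay above every fetal heart, with log2 changes of 0.66 ± 0.092 (SE, adjusted p = 0.000387) at P1d and 0.47 ± 0.092 (SE, adjusted p = 0.00251) at P7d. *Tek*, its partner receptor, showed no called change, at 39.03 ± 1.38, 42.9 ± 2.87 and 39.4 ± 0.777 FPKM in order of stage. *Angpt2*, the ligand that loosens vessels by competing with angiopoietin-1, was at 4.86, 5.27 and 4.43 FPKM in fetal hearts and 3.68, 4.85 and 3.11 FPKM in P1d hearts, where the hearts overlapped. The 3 P7d hearts read 2.20, 2.24 and 2.21 FPKM and lay below all others. The change from E18.5d to P7d was -0.86 ± 0.13 (SE, adjusted p = 0.000473), and that from P1d to P7d was -0.59 ± 0.13 (SE, adjusted p = 0.00476).

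Among the ligands and receptors of the 39 genes, *Apln* and its receptor *Aplnr* had the largest changes. *Apln*, the secreted peptide of sprouting endothelial tip cells (chromosome X: 48025146 to 48034853), was at 9.13, 9.20 and 8.18 FPKM at E18.5d, dropped to 1.90, 2.68 and 4.38 FPKM at P1d and reached 14.1, 15.4 and 17.1 FPKM at P7d. No 2 stages overlapped, although the P1d hearts spread widely among themselves. The log2 changes were -1.35 ± 0.19 (SE, adjusted p = 0.000394) at P1d, 2.09 ± 0.19 (SE, adjusted p = 4.89e-05) from P1d to P7d and 0.74 ± 0.19 (SE, adjusted p = 0.00904) over the whole interval. The mean FPKM at P7d was 5.19 times that at P1d. *Aplnr*, its receptor on endothelial cells of capillaries and veins, did not follow at P1d, with 21.9, 19.6 and 20.7 FPKM in fetal hearts and 20.3, 22.01 and 24.7 FPKM in P1d hearts. At P7d it was at 64.3, 58.6 and 54.9 FPKM, above every earlier heart, a change of 1.47 ± 0.086 (SE, adjusted p = 2.19e-06) against E18.5d and of 1.37 ± 0.086 (SE, adjusted p = 9.74e-06) against P1d. *Apela*, the other ligand of this receptor, fell from 1.51 ± 0.0557 FPKM at P1d to 0.243 ± 0.0208 FPKM at P7d (-1.01 ± 0.13 (SE, adjusted p = 0.000372)).

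Of the 12 junction and surface proteins, 5 rose and 4 fell from E18.5d to P7d (12.5% and 36.9% of all genes), with tight-junction and adhesion genes among those that rose and the fenestral gene *Plvap* and the sialomucin gene *Emcn* among those that fell. The share that fell was near that of all genes, and under median of ratios 5 rose and 2 fell (21.3% and 20.9% of all genes). *Cldn5*, the claudin of endothelial tight junctions, was at 13.7, 13.2 and 11.4 FPKM in fetal hearts, 29.5, 33.5 and 24.9 FPKM in P1d hearts and 31.9, 29.97 and 28.46 FPKM in P7d hearts. All postnatal hearts were above all fetal ones, by 1.13 ± 0.11 (SE, adjusted p = 4.54e-05) at P1d and 1.18 ± 0.11 (SE, adjusted p = 3.17e-05) at P7d, and the postnatal stages overlapped. *Pecam1* took the same course at a smaller size (106, 99.2 and 91.4 FPKM, then 133, 145 and 122 FPKM, then 126, 125 and 131 FPKM), with changes of 0.42 ± 0.077 (SE, adjusted p = 0.00174) and 0.36 ± 0.077 (SE, adjusted p = 0.00361) against E18.5d. *Cdh5* rose later. It read 91.7, 86.9 and 81.4 FPKM before birth, 93.4, 93.9 and 92.7 FPKM on P1d and 125, 130 and 133 FPKM on P7d, and the P7d hearts exceeded those of E18.5d by 0.57 ± 0.057 (SE, adjusted p = 5e-05) and those of P1d by 0.47 ± 0.057 (SE, adjusted p = 0.000234). *Robo4*, a receptor that steadies the vessel wall, went from 6.65, 6.24 and 6.40 FPKM in fetal hearts through 7.84, 8.65 and 6.54 FPKM in P1d hearts to 9.71, 9.67 and 11.1 FPKM in P7d hearts (0.59 ± 0.098 (SE, adjusted p = 0.00101) against E18.5d). *Esam*, an adhesion molecule of tight junctions, rose from 34.6 ± 0.875 FPKM in fetal hearts to 45.1 ± 1.86 FPKM in P7d hearts (0.37 ± 0.074 (SE, adjusted p = 0.0027)). Both of these calls over E18.5d, of *Robo4* and *Esam*, were lost without the 3 hearts with *Scgb3a2*, which left only E18.5d replicate 3 at its stage. Over all alternatives, the log2 change ran from 0.53 to 0.76 for *Robo4* and from 0.33 to 0.55 for *Esam*.

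The largest fall of all 38 genes from E18.5d to P7d was that of *Plvap*, the protein of the diaphragms that span endothelial fenestrae and caveolae (chromosome 8: 71497765 to 71511752). Its level was 29.9, 32.3 and 28.45 FPKM (E18.5d), 18.8, 20.2 and 22.2 FPKM (P1d) and 9.27, 9.58 and 9.68 FPKM (P7d). The stages were stepwise lower and did not overlap, with log2 changes of -0.55 ± 0.074 (SE, adjusted p = 0.000357) at P1d, -1.02 ± 0.074 (SE, adjusted p = 1.79e-05) from P1d to P7d and -1.57 ± 0.074 (SE, adjusted p = 7.1e-07) in all. *Emcn*, a sialomucin of capillary, venous and endocardial endothelium, was at 39.8, 42.5 and 44.4 FPKM in fetal hearts and 36.1, 40.7 and 35.1 FPKM in P1d hearts. It stood at 21.8, 24.4 and 27.2 FPKM at P7d, below every earlier heart (-0.77 ± 0.089 (SE, adjusted p = 0.000129) against E18.5d, -0.59 ± 0.089 (SE, adjusted p = 0.000734) against P1d). *Icam2*, an adhesion molecule for leukocytes, dipped at P1d to 25.4, 31.0 and 27.0 FPKM, below the 47.2, 37.8 and 43.5 FPKM of E18.5d (-0.60 ± 0.11 (SE, adjusted p = 0.00203)). This call was lost without the 3 hearts with *Scgb3a2*, which left only E18.5d replicate 3 at its stage. The change ran from -0.77 to -0.43 over all alternatives. By P7d it had returned to 36.9, 46.8 and 43.2 FPKM (0.59 ± 0.11 (SE, adjusted p = 0.00268)). Smaller falls from E18.5d to P7d were called for *Eng* (71.8 ± 1.16 to 59.7 ± 3.34 FPKM) and for *Clec14a*, a lectin-domain surface protein (11.6 ± 0.356 to 9.21 ± 0.599 FPKM), and both calls ended under median of ratios, quantile normalization and an equal sum of protein-coding nuclear genes. *Mmrn2*, a matrix ligand of CLEC14A, was at 24.6 ± 0.652, 28.7 ± 2.18 and 24.3 ± 0.369 FPKM in order of stage, and its rise at P1d (0.21 ± 0.063 (SE, adjusted p = 0.0214)) was lost without P1d replicate 2, E18.5d replicate 2 or E18.5d replicate 3, on the equal-sum scale and with a covariate for *Xist*. *Ecscr*, a sialomucin of endothelial cells, had means of 28.8 ± 1.69, 29.4 ± 3.12 and 27.5 ± 0.907 FPKM.

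Of the 6 transcription factors, 4 rose from P1d to P7d, where 15.5% of all genes rose. From E18.5d to P1d 2 of the 6 fell, a share near the 27.6% of all genes. *Erg*, an ETS factor that maintains endothelial identity, was at 10.4, 11.1 and 10.3 FPKM in fetal hearts, 10.95, 13.8 and 12.1 FPKM in P1d hearts and 17.9, 18.5 and 16.9 FPKM in P7d hearts. The P7d hearts were above all others (0.69 ± 0.084 (SE, adjusted p = 0.000162) against E18.5d, 0.50 ± 0.084 (SE, adjusted p = 0.00127) against P1d). *Sox18*, of the SOXF family that directs arterial and lymphatic fate, was at 12.3, 10.5 and 10.1 FPKM before birth, 9.27, 11.1 and 8.21 FPKM on P1d and 19.0, 18.3 and 18.7 FPKM on P7d, a rise of 0.72 ± 0.11 (SE, adjusted p = 0.000489) over E18.5d and 0.91 ± 0.11 (SE, adjusted p = 0.000187) over P1d. Its relative *Sox7* dipped first, from 10.1, 9.41 and 9.54 FPKM at E18.5d to 6.02, 5.77 and 7.15 FPKM at P1d (-0.55 ± 0.080 (SE, adjusted p = 0.000513)), and then reached 12.6, 12.0 and 12.8 FPKM at P7d (0.89 ± 0.080 (SE, adjusted p = 5.03e-05)). *Sox17*, the remaining SOXF gene, was at 8.06 ± 0.588, 7.84 ± 0.821 and 7.92 ± 0.671 FPKM and passed the threshold in no comparison. *Fli1*, a further ETS factor, fell at P1d from 16.1 ± 0.182 to 11.9 ± 0.546 FPKM (-0.41 ± 0.062 (SE, adjusted p = 0.00063)) and was back at 16.4 ± 0.844 FPKM at P7d. The calls of *Sox7* and *Fli1* at P1d, and of *Sox7* at P7d over E18.5d, were lost without the 3 hearts with *Scgb3a2*. That fit left only E18.5d replicate 3 at its stage. Over all alternatives, the change at P1d ran from -0.70 to -0.45 for *Sox7* and from -0.57 to -0.34 for *Fli1*. The rise of *Sox7* over E18.5d ran from 0.30 to 0.50. *Tal1*, which also serves blood progenitors and erythroid cells, had means of 2.48, 1.97 and 2.32 FPKM with no called change. Erythroid RNA varied strongly between hearts, with *Hba-a1* at 1278 to 3400 FPKM at E18.5d, 2161 to 4461 FPKM at P1d and 1373 to 1799 FPKM at P7d, and with *Klf1* and *Gata1* at 0.28 FPKM or less.

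Of the arterial and venous pair that meet across the capillary bed, *Efnb2*, the arterial ephrin, fell at P1d from 17.9, 18.2 and 16.9 FPKM to 13.1, 11.8 and 14.0 FPKM (-0.42 ± 0.093 (SE, adjusted p = 0.00521)). The P7d hearts read 14.4, 15.2 and 18.1 FPKM, and their rise over P1d (0.27 ± 0.093 (SE, adjusted p = 0.0395)) was lost when any 1 of 7 of the hearts was left out. The call of the fall at P1d was lost without the 3 hearts with *Scgb3a2*, which left only E18.5d replicate 3 at its stage. Over all alternatives, this fall ran from -0.58 to -0.35 on the log2 scale. *Ephb4*, its venous receptor, moved the other way at P1d, from 42.3, 40.3 and 36.7 FPKM to 48.7, 52.8 and 49.4 FPKM (0.33 ± 0.066 (SE, adjusted p = 0.00291)), a call that ended on the equal-sum scale. *Nr2f2* (COUP-TFII), the nuclear receptor of venous and lymphatic identity that is also made in atrial muscle, was at 7.26, 9.91 and 7.95 FPKM (E18.5d), 7.71, 8.17 and 7.04 FPKM (P1d) and 5.55, 6.08 and 5.72 FPKM (P7d). It was lowest in the 3 P7d hearts (-0.46 ± 0.11 (SE, adjusted p = 0.00575) against E18.5d), and its change moved by 0.279 on the log2 scale when the 4 hearts with *Xist* were left out, the most of any called change. The call was lost without the 3 hearts with *Scgb3a2*, and the change ran from -0.74 to -0.30 over all alternatives.

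The lymphatic identity genes *Prox1* and *Pdpn* parted. *Prox1*, the master regulator of lymphatic fate, which cardiomyocytes also express, was at 18.4, 18.8 and 19.0 FPKM in fetal hearts, 22.7, 19.6 and 19.1 FPKM in P1d hearts and 24.4, 24.1 and 23.9 FPKM in P7d hearts. It was higher in all P7d hearts than in any earlier one, with a change of 0.35 ± 0.069 (SE, adjusted p = 0.00275) against E18.5d that ended on the equal-sum scale. Of 7 cardiomyocyte genes, 4 rose (*Myh6*, *Ryr2*, *Pln* and *Tnni3*), 1 fell (*Tnnt2*) and 2 were not called (*Actc1* and *Myl2*) over the same interval (12.5% of all genes rose and 36.9% fell), with *Ryr2* and *Pln* higher by 0.71 ± 0.061 (SE, adjusted p = 2.25e-05) and 0.70 ± 0.058 (SE, adjusted p = 1.74e-05). *Pdpn* (podoplanin), a surface protein of lymphatic endothelium that the epicardium also makes, was at 3.13, 3.79 and 3.69 FPKM before birth, 3.09, 3.45 and 2.70 FPKM on P1d and 2.42, 2.39 and 2.41 FPKM on P7d (-0.41 ± 0.098 (SE, adjusted p = 0.00711) from E18.5d to P7d). This call was lost under quantile normalization and without the 3 hearts with *Scgb3a2*, which left only E18.5d replicate 3 at its stage. The change ran from -0.53 to -0.25 over all alternatives. The table holds the same values under another identifier of this gene, which were counted once. Of 6 epicardial markers, 5 fell from E18.5d to P7d, beside 36.9% of all genes. Their summed level was 69.4, 77.7 and 83.2 FPKM (E18.5d), 69.5, 84.4 and 58.1 FPKM (P1d) and 31.7, 34.8 and 37.5 FPKM (P7d), with *Msln* the most abundant and none at 0.

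Capillary, secreted and signalling genes held the largest rise. *Car4*, a membrane-bound carbonic anhydrase of capillary endothelium that is also found in muscle (chromosome 11: 84957786 to 84966044), was at 1.66, 2.31 and 2.39 FPKM in fetal hearts, 26.4, 22.2 and 13.9 FPKM in P1d hearts and 13.3, 14.1 and 14.2 FPKM in P7d hearts. Every postnatal heart was several times above every fetal heart, and the P1d hearts spread more than the others. The log2 changes against E18.5d were 2.77 ± 0.19 (SE, adjusted p = 8.11e-06) at P1d and 2.26 ± 0.19 (SE, adjusted p = 2.22e-05) at P7d, and the mean FPKM at P1d was 9.82 times that at E18.5d. Of the P1d hearts the one with *Scgb3a2* was the highest. Of the E18.5d hearts the 2 with *Scgb3a2* were the lower ones. Without these 3 hearts, which left only E18.5d replicate 3 at its stage, the change at P1d was 2.45.

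*Rgcc*, a regulator of the cell cycle that is abundant in heart capillaries, rose stepwise, with 6.37, 4.50 and 5.38 FPKM before birth, 9.72, 9.23 and 7.10 FPKM on P1d and 13.5, 12.8 and 15.1 FPKM on P7d. No 2 stages overlapped, and the change was 0.59 ± 0.13 (SE, adjusted p = 0.00552) at P1d and 1.21 ± 0.13 (SE, adjusted p = 9.38e-05) at P7d. The call at P1d was lost without the 3 hearts with *Scgb3a2*, which left only E18.5d replicate 3 at its stage. The change there ran from 0.44 to 0.81 over all alternatives. *Egfl7* was at 72.2, 73.2 and 70.8 FPKM (E18.5d), 101, 107 and 101 FPKM (P1d) and 122, 102 and 98.1 FPKM (P7d). Both postnatal stages exceeded the fetal one, by 0.51 ± 0.078 (SE, adjusted p = 0.000709) and 0.56 ± 0.078 (SE, adjusted p = 0.000366), and overlapped each other. *Vwf*, the clotting factor stored in endothelial cells and platelets, rose and then fell, at 43.3, 43.2 and 41.0 FPKM in fetal hearts, 55.2, 71.4 and 47.6 FPKM in P1d hearts and 33.5, 31.5 and 31.9 FPKM in P7d hearts. The rise at P1d was 0.42 ± 0.12 (SE, adjusted p = 0.0177) and was lost without E18.5d replicate 3, on the equal-sum scale, with a covariate for *Xist* and without the 3 hearts with *Scgb3a2*. All P7d hearts were below all others, by -0.81 ± 0.12 (SE, adjusted p = 0.000709) against P1d and -0.38 ± 0.12 (SE, adjusted p = 0.0248) against E18.5d, and the latter call ended on 3 of the 4 other scales and without 1 of several single hearts. Of 5 platelet genes, *Pf4*, the most abundant, was at 16.3, 22.4 and 18.1 FPKM before birth, 29.7, 37.5 and 27.1 FPKM on P1d and 22.5, 20.9 and 18.3 FPKM on P7d. Their summed level was 20.2 to 24.2 FPKM at E18.5d, 30.3 to 43.1 FPKM at P1d and 22.2 to 25.6 FPKM at P7d, and none was at 0 in all hearts. Of the 3 tested, 1 rose at P1d against E18.5d (18.4% of all genes), namely *Pf4*, and *Itga2b* and *Gp9* were not called. P1d replicate 2, the heart with the most *Vwf* and *Pf4*, also had the largest column sum.

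*Aqp1*, the water channel of capillaries and red cells, was at 47.6, 48.0 and 43.6 FPKM (E18.5d), 46.0, 67.5 and 43.6 FPKM (P1d) and 66.7, 64.9 and 61.4 FPKM (P7d). Its rise from E18.5d to P7d was called (0.46 ± 0.14 (SE, adjusted p = 0.0205)) but was lost without E18.5d replicate 3, P7d replicate 1 or P7d replicate 2, and its 1 high P1d heart was replicate 2, the heart with the most *Hba-a1* and the largest column sum. The rise was also lost without a filter and without the 3 hearts with *Scgb3a2*. *Rasip1*, a regulator of the vascular lumen, was at 12.3 ± 0.838 FPKM at P1d and 15.7 ± 0.448 FPKM at P7d (0.33 ± 0.067 (SE, adjusted p = 0.00375)). *Nos3*, the endothelial nitric oxide synthase, passed the threshold in no comparison, with 14.0 ± 0.926, 14.97 ± 1.58 and 16.1 ± 0.814 FPKM in order of stage.

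**Figure D2:**
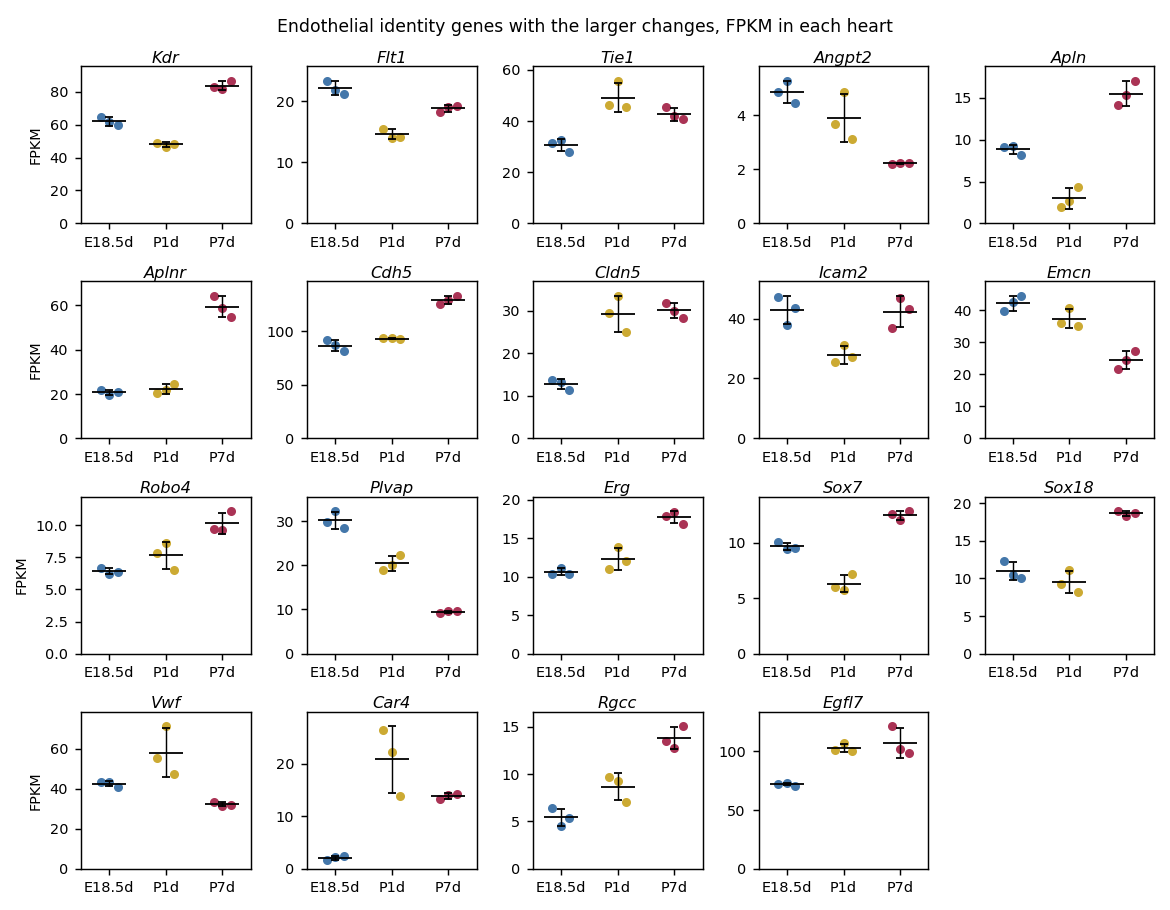
FPKM in each of the 9 hearts (points), with the mean and SD of the 3 hearts of a stage as bars, for the 19 genes called in a comparison with a log2 change of at least 0.5 either way and no overlap of the hearts there. Each panel has its own linear scale from 0. *Kdr*, *Apln* and *Sox7* are lowest at P1d and highest at P7d, *Plvap* steps down and *Rgcc* steps up.

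Each gene was also set against other genes of the same heart, by subtracting the mean log2(FPKM + 1) of a pan-endothelial core of *Pecam1*, *Cdh5*, *Tie1*, *Esam*, *Erg* and *Clec14a*. The scale of a column cancels in this difference only in part, because of the pseudocount of 1, and least for low genes such as *Angpt2*, *Pdpn* and *Car4*. The core mean was 5.11, 5.10 and 5.0 in the E18.5d hearts, 5.25, 5.45 and 5.26 in the P1d hearts and 5.43 in each P7d heart. The core was thus higher after birth on the deposited scale, and 5 of its 6 genes, all but *Clec14a*, rose from E18.5d to P7d. Relative to it, 10 of the other 32 genes tested were higher in all P7d hearts than in any E18.5d heart, 20 were lower in all and 2 overlapped. Of all 13618 genes, set against the same core, 5.74% were higher in this way and 78.3% lower. *Car4* gained most from E18.5d to P7d, by 1.90 on the log2 scale, followed by *Aplnr* (1.11), *Rgcc* (0.85) and *Cldn5* (0.82). *Plvap* lost most (-1.93), followed by *Angpt2* (-1.22), *Emcn* (-1.13) and *Nr2f2* (-0.82). Taken as level minus core, *Car4*, with P7d hearts at -1.59, -1.51 and -1.51 against E18.5d hearts at -3.70, -3.38 and -3.23, and *Plvap*, at -2.07, -2.03 and -2.01 against -0.16, -0.05 and -0.12, were the 2 ends of the order. At P1d against E18.5d, 3 of the 32 were above in all hearts, 19 below and 10 overlapping (8.75% above and 55.1% below among all genes). The VEGF receptors were among the 19, with *Kdr* at -0.61 and *Flt1* at -0.82. By P7d *Kdr* was slightly above its fetal level relative to the core (0.07), while *Flt1* (-0.58) and *Flt4* (-0.52) were still below it in every heart. Between P1d and P7d, 12 were above, 12 below and 8 overlapping (11.9% above and 42.6% below among all genes). No test was run on these differences.

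**Figure D3:**
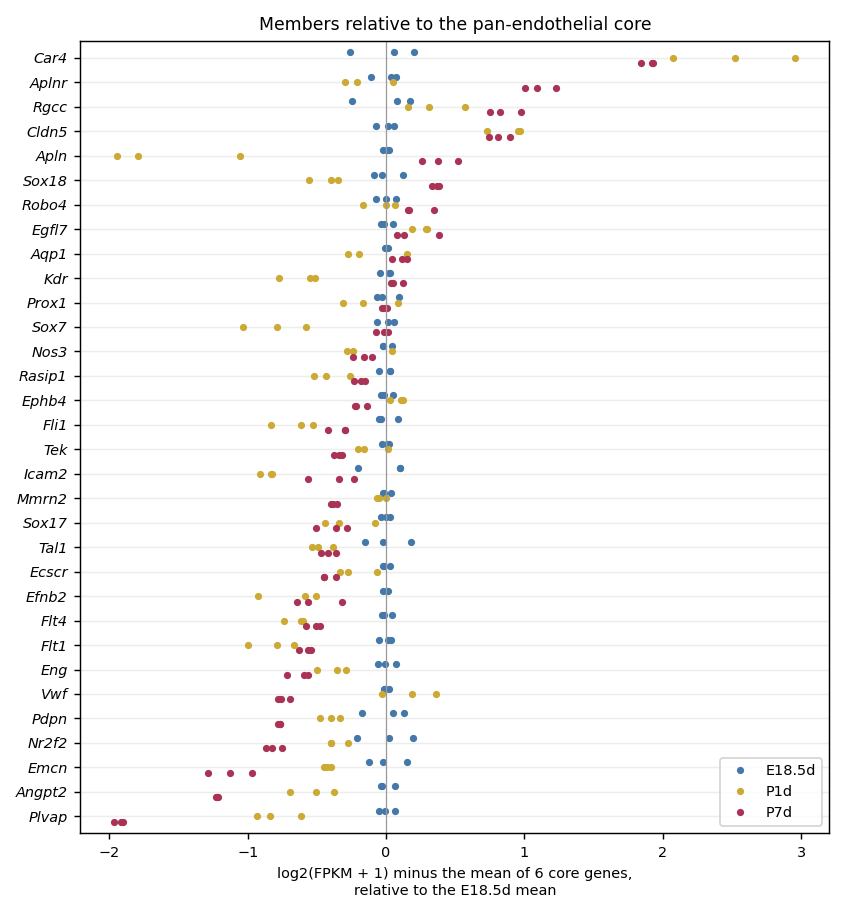
Log2(FPKM + 1) of each of 32 genes minus the mean of the 6 core genes in the same heart, shown relative to the mean of the E18.5d hearts, with 1 point per heart. Genes are ordered by their difference between P7d and E18.5d, from *Car4* at the top (1.90) to *Plvap* at the bottom (-1.93), and *Apln*, *Sox7* and *Kdr* show P1d hearts to the left of both other stages.

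Other genes of the same cells and pathways, in lists that do not hold the 39, were counted in the same limma fit, and their counts stand beside 18.4% of all genes rising and 27.6% falling at P1d against E18.5d, 12.5% and 36.9% at P7d against E18.5d, and 15.5% and 28.6% at P7d against P1d. Of 18 other pan-endothelial genes, 6 rose and 4 fell at P1d against E18.5d, and 12 rose and 3 fell at P7d against E18.5d (median 0.48). *Ly6c1*, a surface protein of capillary endothelium, went from 25.1 ± 4.54 FPKM in fetal hearts to 85.8 ± 8.66 FPKM in P7d hearts (1.75 ± 0.24 (SE, adjusted p = 0.000371)). The progenitor and endothelial antigen *Cd34* rose from 103 ± 12.9 FPKM at P1d to 177 ± 4.47 FPKM at P7d (0.79 ± 0.087 (SE, adjusted p = 0.000143)). Of the adrenomedullin receptor, *Calcrl* fell at P1d and rose again to P7d, at 24.2, 13.1 and 17.5 FPKM in order of stage, whereas its partner *Ramp2* rose and then fell, at 104, 123 and 78.5 FPKM. Both ended below their fetal level, and each of these changes passed the threshold. *S1pr1*, the sphingosine 1-phosphate receptor, rose at P1d (0.41 ± 0.076 (SE, adjusted p = 0.00205)) and fell from there to P7d (-0.80 ± 0.076 (SE, adjusted p = 6.4e-05)).

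Among 15 vascular ligands and co-receptors, 1 rose and 7 fell at P1d against E18.5d, and 6 rose and 3 fell between P1d and P7d. *Vegfa*, the main ligand of *Kdr* and *Flt1*, was at 84.7, 77.9 and 72.6 FPKM in fetal hearts, 45.6, 42.9 and 42.4 FPKM in P1d hearts and 85.6, 85.1 and 86.3 FPKM in P7d hearts. The ligand dipped at P1d (-0.83 ± 0.064 (SE, adjusted p = 1.35e-05)) and returned (0.96 ± 0.064 (SE, adjusted p = 1.31e-05)), with no called difference between P7d and E18.5d. Both of its receptors were lowest at P1d as well. *Vegfb*, the ligand of *Flt1* alone, also fell at P1d (67.0 to 49.6 FPKM, -0.42 ± 0.060 (SE, adjusted p = 0.000423)). *Angpt1*, the angiopoietin that activates *Tek*, rose at P1d (6.81 ± 1.09 to 9.10 ± 0.321 FPKM) and fell to 2.47 ± 0.249 FPKM at P7d (-1.54 ± 0.11 (SE, adjusted p = 1.58e-05)). Both angiopoietins were therefore lower at P7d than before birth. The semaphorin *Sema3c* and the co-receptor *Nrp2* gave the largest rises from P1d to P7d, by 1.90 ± 0.16 (SE, adjusted p = 4.07e-05) and 1.17 ± 0.066 (SE, adjusted p = 6.27e-06).

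Of 11 arterial genes, 6 fell at P1d against E18.5d, where 27.6% of all genes fell, and 5, namely *Gja4*, *Gja5*, *Sema3g*, *Bmx* and *Mecom*, were not called. Under median of ratios 5 fell and 1 rose there (22.9% and 23.2% of all genes). From P1d to P7d 4 rose and 2 fell. *Dll4*, the Notch ligand of arterial and tip cells, was at 7.64 ± 0.289, 4.36 ± 0.672 and 8.86 ± 0.119 FPKM, and *Cxcr4*, the chemokine receptor, at 6.76 ± 1.06, 3.21 ± 0.611 and 7.69 ± 0.835 FPKM in order of stage. Their falls at P1d were -0.70 ± 0.090 (SE, adjusted p = 0.000271) and -0.88 ± 0.14 (SE, adjusted p = 0.000687). *Gja5* (connexin 40), which the conduction system and the atria also express, did not dip with them and fell between P1d and P7d, from 38.4 ± 3.22 to 17.5 ± 2.09 FPKM (-1.10 ± 0.095 (SE, adjusted p = 4.2e-05)). In contrast, of 8 capillary lipid-handling genes 5 rose and 2 fell at P1d, and 7 rose and 1 fell at P7d against E18.5d (median 1.08). *Cd36*, the fatty acid transporter, was at 193 ± 9.88 FPKM in fetal hearts and 585 ± 53.1 FPKM in P1d hearts (1.59 ± 0.073 (SE, adjusted p = 1.2e-06)), and *Lpl*, the lipoprotein lipase that muscle supplies to the capillary wall, reached 384 ± 21.2 FPKM at P7d (1.18 ± 0.12 (SE, adjusted p = 5.16e-05) against E18.5d). Cardiomyocytes make both. *Fabp4*, a fatty acid carrier, rose at P1d to 2.08 times its fetal mean FPKM, while its relative *Fabp5* fell to 0.664 times. *Meox2*, a factor of heart capillaries, dipped at P1d (-0.83 ± 0.12 (SE, adjusted p = 0.000552)) and rose to 8.29 ± 1.24 FPKM at P7d (1.23 ± 0.12 (SE, adjusted p = 8.39e-05)).

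Among endocardial genes, 5 of 7 fell and 1, *Tmem100*, rose at P7d against E18.5d (36.9% and 12.5% of all genes), and 5 fell from P1d to P7d. *Npr3*, the natriuretic peptide clearance receptor, went from 19.5 ± 2.52 FPKM in fetal hearts to 6.88 ± 1.12 FPKM in P7d hearts (-1.38 ± 0.13 (SE, adjusted p = 3.42e-05)), and *Adgrg6*, an adhesion receptor, from 10.7 ± 0.206 to 2.26 ± 0.776 FPKM (-1.87 ± 0.15 (SE, adjusted p = 1.54e-05)). *Cytl1* rose at P1d before it fell, with 5.88 ± 0.726, 13.7 ± 4.62 and 4.59 ± 0.116 FPKM in order of stage. Of 8 other lymphatic genes 7 were tested, *Ccbe1* being too low, and 2 rose and 5 fell at P7d against E18.5d, beside the same shares of all genes. Under median of ratios 2 rose and 3 fell (21.3% and 20.9% of all genes), and at P1d against E18.5d 1 of the 7 fell on either scale. *Lyve1*, the hyaluronan receptor of lymphatic vessels and resident macrophages, was at 17.7, 16.7 and 15.2 FPKM before birth, 19.9, 23.2 and 13.3 FPKM on P1d and 3.41, 4.64 and 4.03 FPKM on P7d, and its fall from E18.5d to P7d was -1.81 ± 0.18 (SE, adjusted p = 4.47e-05). *Mmrn1* and *Reln*, which lymphatic endothelium secretes, fell alongside it (-1.17 ± 0.17 (SE, adjusted p = 0.000448) and -0.69 ± 0.17 (SE, adjusted p = 0.0078)). *Itga9*, an integrin of lymphatic valves that is also found in muscle, and *Adamts3*, a protease that activates VEGF-C, were the 2 that rose. Of 6 macrophage markers, led by *C1qa*, 2 rose over the same interval (12.5% of all genes). The sums of the 6 were 39.6 to 50.03 FPKM at E18.5d, 48.4 to 71.2 FPKM at P1d and 52.7 to 58.2 FPKM at P7d.

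Of 13 other endothelial transcription factors 11 were tested. *Etv2*, which starts the endothelial lineage in the early embryo, was listed at 0 in all hearts, and *Foxf1* was below the filter. At P7d against E18.5d 5 rose and 1 fell. *Epas1* (HIF-2 alpha) went from 15.7, 15.6 and 15.9 FPKM in fetal hearts through 22.9, 20.2 and 19.5 FPKM in P1d hearts to 36.6, 39.5 and 39.8 FPKM in P7d hearts, a rise of 1.24 ± 0.069 (SE, adjusted p = 1.55e-06). *Ets1*, a relative of *Erg* and *Fli1*, dipped at P1d (34.9 to 25.9 FPKM) and rose to 50.6 FPKM at P7d (0.94 ± 0.063 (SE, adjusted p = 1.32e-05)), as *Fli1* and *Sox7* did. The flow-responsive factors *Klf2* and *Klf4* rose at P1d, by 0.46 ± 0.083 (SE, adjusted p = 0.00178) and 0.71 ± 0.096 (SE, adjusted p = 0.000323). *Lyl1*, a relative of *Tal1*, fell at P1d from 4.28 ± 0.191 to 1.58 ± 0.167 FPKM (-1.04 ± 0.093 (SE, adjusted p = 3.38e-05)).

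**Figure D4:**
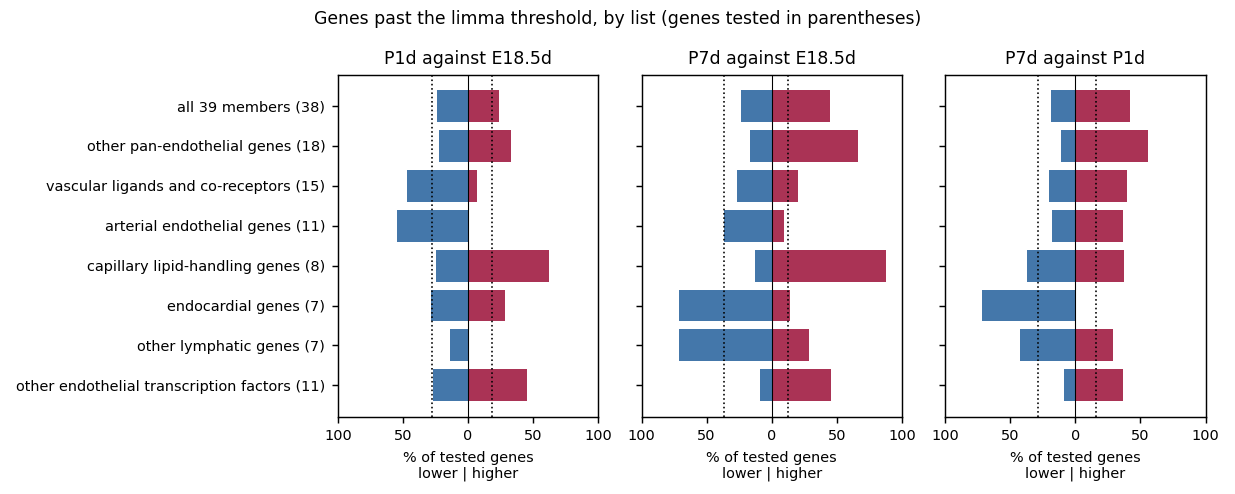
Share of the genes tested in each list that rose (red, to the right) or fell (blue, to the left) at an adjusted p under 0.05, in percent, with the number tested in parentheses and the shares of all 13618 genes as dotted lines. Capillary lipid-handling genes and other pan-endothelial genes extend to the right at P7d against E18.5d, and endocardial and other lymphatic genes extend to the left.

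Without the 4 hearts with *Xist*, which left 1 heart at E18.5d and at P7d, all 67 called changes of the identity genes had the same sign. The hearts of the stages compared did not overlap in any of the 67, so leaving out hearts, here or below, could not turn a sign. The 67 values differed from those of 9 hearts by 0.045 in the median and by 0.279 at most on the log2 scale. Most of them were no longer called in that fit, in which calls over all genes became far fewer as well. With a covariate for *Xist*, 58 of 67 remained past the threshold. Without the 3 hearts with *Scgb3a2*, all 67 kept their sign and 44 remained past the threshold. In that fit, of 6 hearts, 1019 of all genes rose and 1452 fell at P1d against E18.5d, where 2505 and 3755 did with 9 hearts. The calls lost were those of *Kdr*, *Flt4*, *Icam2*, *Mmrn2*, *Fli1*, *Sox7*, *Efnb2*, *Vwf* and *Rgcc* at P1d against E18.5d, of *Flt1*, *Esam*, *Eng*, *Robo4*, *Clec14a*, *Sox7*, *Nr2f2*, *Pdpn*, *Vwf* and *Aqp1* at P7d against E18.5d, and of *Flt4*, *Robo4*, *Clec14a* and *Efnb2* at P7d against P1d.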

How the data were processed

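Total RNA of whole hearts was sequenced from NEBNext Ultra libraries. The authors deposited FPKM values with 2 decimals for 48820 genes, 1 column per heart. The submitters' processing notes name STAR, GRCm38 and mm10, and the counting tool and annotation are not given in the sources used here. Hearts were grouped by the stage in their labels. Names and positions came from GENCODE M21 of GRCm38, matched by identifier without version (48144 identifiers).

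The genes and lists were chosen with earlier results of these data known. Values of log2(FPKM + 1) of the 13618 genes with a mean of 1 FPKM or more entered a linear model (limma 3.58.1, R 4.3.3, eBayes with trend, all stages in 1 fit, no covariates), with Benjamini-Hochberg adjustment over all genes and a threshold of 0.05. Fold changes on this scale understate the change of low genes, and n = 3 hearts per stage throughout. With 3 hearts against 3, an exact permutation test cannot go below 0.1. The p-values measure the spread between these hearts only, since the sources do not say whether litters were shared. All 39 genes were named. Values were given heart by heart where a called change was at least 0.5 (log2) without overlap of the hearts, and for some further genes. Examples came from the 3 largest called changes each way of each further list. Other genes were named with their values known.

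FPKM are not counts. Depth was read from low values, of which 71.7% to 75.8% came out as whole fragments at the rounding of 2 decimals (13.2% to 15.1% by chance). Column sums ran from 1347981 to 1794160 FPKM, highest in P1d replicate 2, where protein-coding nuclear genes took 29.57%. Alternatives were other pseudocounts, filters and scales, no trend, a replicate block, an *Xist* covariate, and leaving out hearts. Leaving out the hearts with *Scgb3a2* was added after seeing the data.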

Additional observations from a re-analysis of the deposited data

How the results depend on the processing

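Of the 67 called changes of the identity genes, all 67 had the same sign under each alternative that gave a value. Only the other scales and the *Xist* covariate could have turned a sign. The hearts of the stages compared did not overlap in any of the 67, which fixed the sign under the remaining alternatives. All 67 stayed past the threshold with a pseudocount of 0.1 and without trend, 64 of the 64 tested did so with a mean of at least 5 FPKM, and 62 did without a filter. On an equal sum 56 did, and 60 did under each of median of ratios, quantile normalization and an equal sum of protein-coding nuclear genes. Counts that moved by over 1.5 times were as follows, and their cause was not tested apart from the fewer hearts. Counts of all 13618 genes stand in parentheses, and as deposited 2505 rose and 3755 fell at P1d against E18.5d. At P7d, 5025 fell against E18.5d and 3901 fell against P1d. By median of ratios 14 rose at P1d against E18.5d (3154 of all genes). On that scale 5 fell at P7d against E18.5d and 4 fell at P7d against P1d (2848 and 2700). On an equal sum 15 fell at P1d against E18.5d and 4 fell at P7d against P1d (4694 and 1728). Under quantile normalization 4 fell at P7d against E18.5d (2937). On an equal sum of protein-coding nuclear genes 5 fell there and 4 fell at P7d against P1d (2871 and 2234). With the *Xist* covariate 4 fell at P7d against P1d (2438). Without the 4 hearts with *Xist*, where the lone E18.5d and P7d hearts are assumed to vary like the P1d hearts, limma called 2 higher and 0 lower at P1d against E18.5d (9 lower at an unadjusted p under 0.05), 1 higher and 1 lower at P7d against E18.5d, and 2 higher and 1 lower at P7d against P1d. Without the 4 hearts with *Xist*, calls over all genes became far fewer as well, so that the loss was not particular to the identity genes. The counts of falls at P1d and P7d against E18.5d also moved without the 3 hearts with *Scgb3a2*. That fit left 1 heart at E18.5d and took the spread from the other stages. In it, the 67 changes differed from those of all hearts by 0.051 in the median on the log2 scale. Leaving out single hearts gave 7 to 11 higher and 9 to 11 lower at P1d against E18.5d, 16 to 18 and 7 to 9 at P7d against E18.5d, and 12 to 16 and 5 to 8 at P7d against P1d. For hearts with the same replicate number, deviations from the stage means correlated at -0.055 to 0.112, and for other pairs at -0.182 to 0.129. Whether hearts with the same number shared a litter or a preparation was not tested. With the replicate number as a block 9 rose and 9 fell, 17 rose and 9 fell, and 16 rose and 7 fell, as without it. Of the 47 changes not called, 23 passed under at least 1 alternative and 26 changed sign under at least 1. The depth puts 3 fragments on a kilobase at 0.067 to 0.1165 FPKM, which limits *Esm1* most.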

Other observations

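Mural and stromal cells share the vessel bed with the endothelium, and their markers were counted beside it. Of 9 pericyte and smooth muscle genes, 4 rose and 2 fell at P7d against E18.5d in the limma fit (12.5% and 36.9% of all genes). *Rgs5*, *Abcc9*, *Kcnj8* and *Pdgfrb* were the 4 that rose. *Cspg4*, *Notch3* and *Myh11* of the same list were not called there, and *Cspg4* fell at P1d against E18.5d (-0.31 ± 0.070 (SE, adjusted p = 0.00614)). *Rgs5*, a regulator of G-protein signalling, was at 30.5, 45.1 and 28.9 FPKM in fetal hearts and 106, 98.9 and 104 FPKM in P7d hearts (1.56 ± 0.14 (SE, adjusted p = 2.84e-05)), and *Pdgfrb*, the receptor by which pericytes are recruited, went from 25.0 ± 1.23 to 42.8 ± 2.15 FPKM (0.75 ± 0.098 (SE, adjusted p = 0.000247)). The contractile genes *Cnn1* and *Acta2*, which fetal cardiomyocytes also express, were the 2 that fell, *Cnn1* from 31.8 ± 4.15 to 6.01 ± 0.196 FPKM (-2.22 ± 0.11 (SE, adjusted p = 8.27e-07)). The summed level of the 9 overlapped between stages, with *Acta2* the most abundant of them. Of 6 fibroblast genes, 3 fell at P1d against E18.5d (27.6% of all genes) and 2 rose at P7d against E18.5d (12.5% of all genes). Under median of ratios 2 fell at P1d against E18.5d (22.9% of all genes). On that scale 3 rose and 0 fell at P7d against E18.5d (21.3% and 20.9% of all genes). *Dcn* was at 185 ± 4.45, 179 ± 33.6 and 297 ± 3.82 FPKM in order of stage. Of 4 thymus genes, none exceeded a mean of 0.5 FPKM over the hearts. These lists were chosen with earlier results known.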
